A study of Mus musculus with 14 samples.

Results

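The levels of 10 transcripts of the circadian clock were followed in sorted cells of depilated mouse skin: Arntl, Per1, Per2, Per3, Cry1, Ciart, Nr1d1, Nr1d2, Dbp and Tef. They were taken by gene symbol, as 10 of the 24537 symbols in each of 2 tables of TPM, the transcript level scaled by transcript length and library size. One table held 8 RNA-seq libraries of skin regulatory T (Treg) cells taken 24 hours after hair depilation, and the other held 6 libraries of CD34+ ITGA6high hair follicle stem cells (HFSC) taken 4 days after it. The knockout (GR KO) mice were Foxp3YFP-Cre GRfl/fl, in which Cre is driven by the Treg cell gene Foxp3 and the glucocorticoid receptor gene is floxed, and the controls (GR WT) were wild type. There were 5 GR KO and 3 GR WT libraries of Treg cells, and 3 of each genotype for HFSC. All mice were depilated, so no group shows undisturbed skin. In the HFSC comparison the floxed allele was targeted in Treg cells and not in the cells sequenced. The labels give neither the mice's age nor whether the wild-type mice carried Cre. They do not say that replicates were separate mice, and the p-values therefore reflect only how far these libraries spread, in part perhaps for technical reasons. They also give no time of day of collection, and the transcripts described here cycle over the day in many tissues.

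The clock is a transcriptional feedback loop. BMAL1, the product of Arntl, pairs with CLOCK, binds E-boxes and activates the Per and Cry genes, Nr1d1, Nr1d2, Ciart, Dbp and Tef. The PER and CRY proteins and CIART repress that activator, and the nuclear receptors encoded by Nr1d1 and Nr1d2 (REV-ERB alpha and beta) repress Arntl through elements that ROR receptors also bind. DBP and TEF are PAR bZIP factors that carry the rhythm to target genes through D-boxes. Glucocorticoids set the phase of clocks outside the brain, and Per1 is a known direct target of their receptor. In hair follicles the clock has been linked to the timing of stem cell activation.

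Sequences are shown for Ciart, Cry1, Per3 and Arntl, as examples of the elements through which the loop's factors act, and for Dbp, the gene with the clearest separation of genotypes in Treg cells. Each promoter is the 250 bases before the annotated start in RefSeq, build GRCm38.p6, written 5′ to 3′ on the gene's strand, with matches to the searched motifs in capitals and all else in lower case. Ciart (chr3:95882229-95882478, minus strand) held 3 E-boxes, CACGTG. Cry1 (chr10:85185055-85185304, minus strand) held an E-box and an E-prime box, CACGTT, here in its reverse complement. Per3 (chr4:151044666-151044915, minus strand) held 2 D-boxes, TTATGTAA or TTACGTAA. Dbp (chr7:45704997-45705246, plus strand) held none of the motifs in this window. For Arntl, a stretch of 30 bases (chr7:113207526-113207555, plus strand) past its second annotated start held the core of a REV-ERB and ROR element, TAGGTCA.
Ciart: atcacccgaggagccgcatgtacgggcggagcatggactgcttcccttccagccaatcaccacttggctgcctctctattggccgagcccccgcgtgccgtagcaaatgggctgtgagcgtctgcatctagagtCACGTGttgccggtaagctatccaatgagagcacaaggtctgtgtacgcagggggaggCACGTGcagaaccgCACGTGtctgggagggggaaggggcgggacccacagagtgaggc
Cry1: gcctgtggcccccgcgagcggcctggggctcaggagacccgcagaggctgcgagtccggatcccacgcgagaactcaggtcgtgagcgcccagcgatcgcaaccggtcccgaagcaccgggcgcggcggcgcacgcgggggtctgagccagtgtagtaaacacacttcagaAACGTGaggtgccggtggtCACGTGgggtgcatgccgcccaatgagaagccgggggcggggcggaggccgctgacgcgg
Per3: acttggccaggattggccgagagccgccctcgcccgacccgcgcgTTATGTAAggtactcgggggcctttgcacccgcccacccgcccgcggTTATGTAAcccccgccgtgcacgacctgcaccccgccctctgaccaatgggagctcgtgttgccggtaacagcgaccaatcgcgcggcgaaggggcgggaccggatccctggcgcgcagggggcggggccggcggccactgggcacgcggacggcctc
Dbp: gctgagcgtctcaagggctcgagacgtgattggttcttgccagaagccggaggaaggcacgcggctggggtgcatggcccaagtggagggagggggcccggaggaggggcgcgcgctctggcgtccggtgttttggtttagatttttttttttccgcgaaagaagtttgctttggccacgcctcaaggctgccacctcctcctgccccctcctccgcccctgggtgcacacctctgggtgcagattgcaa
Arntl: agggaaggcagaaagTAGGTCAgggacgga

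A promoter entry was found for 9 of the 10 genes, Per2 being the exception, and windows ran from 250 bases before to 50 bases after each start. Motifs were searched on both strands, and no searched motif is part of another. The E-box was found in 4 of these 9 genes (Tef, Per1, Cry1 and Ciart) and in 8.09% of all 27025 genes with an entry. The Per1 match lay at its first annotated start, upstream of the start of the transcript measured. The window of its second start, close to that of the measured transcript, held none. An E-prime box was found in 2 of 9, Nr1d1 and Cry1, and in 5.44% of all genes. The D-box was found in 1 of 9, Per3, against 1.23% of all genes, and the REV-ERB and ROR core in 1 of 9, Arntl, against 2.97%. The receptor's own element, searched as GNACA, any 3 bases and TGTNC, was found in 0 of 9 and in 0.54% of all genes. These are matches of letters in a short window, and binding was not measured.

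**Figure D1:**
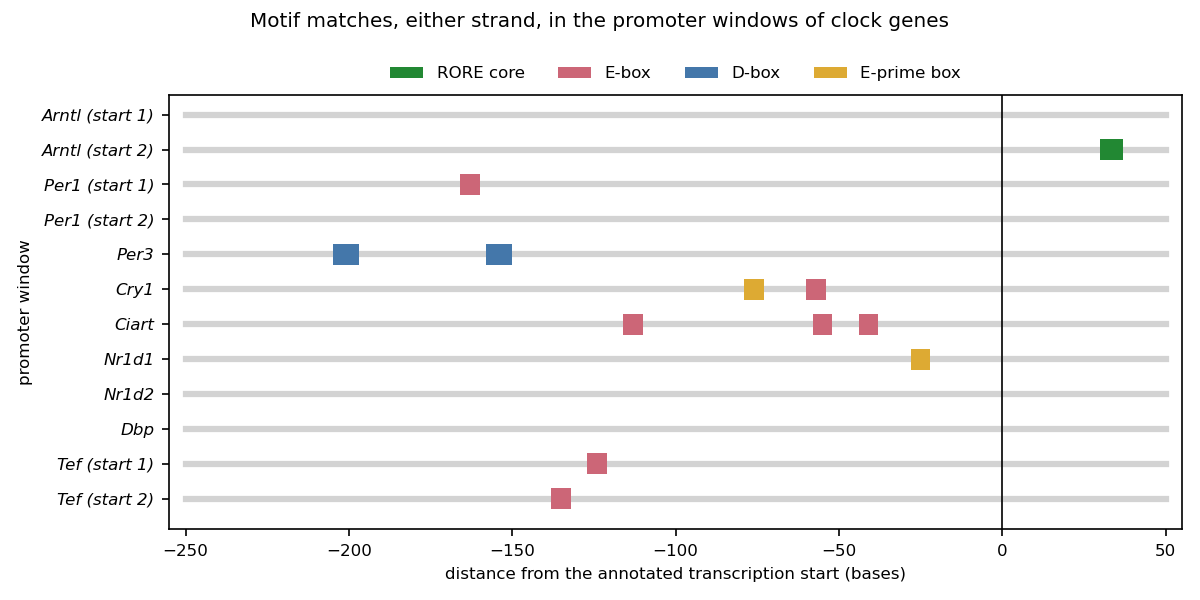
Position of each motif match (coloured blocks) along the promoter windows of the 9 clock genes with an entry (grey lines), in bases from the annotated start at 0. Ciart has 3 E-boxes and Per3 has 2 D-boxes, whereas Dbp and Nr1d2 have no match.

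Before the comparison, the libraries were checked. Nr3c1, which encodes the glucocorticoid receptor, was at 170.5, 233 and 230 TPM in the GR WT Treg libraries and at 106, 125, 106, 171 and 139 TPM in the GR KO ones. GR KO replicate 4, the highest GR KO library, lay just above the lowest GR WT library, and the transcript level in GR KO averaged 61.3% of GR WT (limma, adjusted p = 0.0722). In HFSC Nr3c1 did not pass the test (log2 fold change 0.07, adjusted p = 0.87 by limma). Treg libraries held 9167605 to 14461507 tags (counted reads) and HFSC libraries 4503904 to 7989728. Summed T cell markers spanned 6440 to 9630 TPM in Treg libraries of both genotypes and 5.81 to 13.6 TPM in HFSC libraries. Most of the Treg sum was Ctla4 (5922 TPM in GR WT, 4835 in GR KO), and most of the HFSC sum Ikzf2 (5.77 and 11.7 TPM). Of the 8 markers in Treg cells 4 were higher and 4 lower in GR KO. Only Il2ra passed, at 485 TPM in GR WT and 330 in GR KO (adjusted p = 0.00575 by limma). Foxp3 averaged 227 and 171 TPM (adjusted p = 0.381). In HFSC follicle stem cell markers spanned 4640 to 8610 TPM. In the first principal component of the HFSC table, GR WT replicate 1, also the library with the fewest tags, lay at -59.8 and the other 5 libraries between 4 and 17.7.

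All 10 clock genes were measured in both cell types. In GR WT Treg cells the order of mean TPM was Per1 (130.3 ± 33.6, SD, n = 3), Nr1d2 (79.4 ± 7.63), Nr1d1 (42.2 ± 5.21), Arntl (32.5 ± 4.81), Dbp (26.0 ± 1.65), Tef (21.6 ± 4.50), Cry1 (17.9 ± 2.23), Ciart (9.83 ± 1.26), Per3 (5.05 ± 1.29) and Per2 (1.64 ± 0.311). Ranges of single libraries overlapped between the neighbours Arntl and Dbp, Dbp and Tef, and Tef and Cry1, so the order within that run is not resolved. Per1, a hormone-responsive member of the Period family, stood above 93.0% of the genes tested in Treg cells, and Per2 above 5.7%.

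In GR WT HFSC the order was Per1 (127.4 ± 14.2 TPM, SD, n = 3), Nr1d1 (117.5 ± 20.2), Dbp (51.0 ± 11.1), Tef (48.1 ± 8.20), Nr1d2 (45.5 ± 3.93), Arntl (18.3 ± 4.73), Ciart (8.05 ± 5.27), Per3 (7.30 ± 2.97), Cry1 (3.48 ± 0.551) and Per2 (2.86 ± 1.18). Here only the steps from Nr1d1 to Dbp, from Nr1d2 to Arntl and from Arntl to Ciart separated all libraries of the neighbours. Set beside Treg cells, the GR WT level in HFSC was higher without overlap for Nr1d1 (2.78 times), Tef (2.22 times) and Dbp (1.96 times). The Treg level was higher without overlap for Cry1 (5.15 times), Arntl (1.78 times) and Nr1d2 (1.74 times), and Per1, Per2, Per3 and Ciart overlapped. The tables were made separately, cells were taken at different times after depilation, and Arntl was scaled by a transcript of 2886 bases in one and 2596 in the other, so these are levels side by side without a test.

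**Figure D2:**
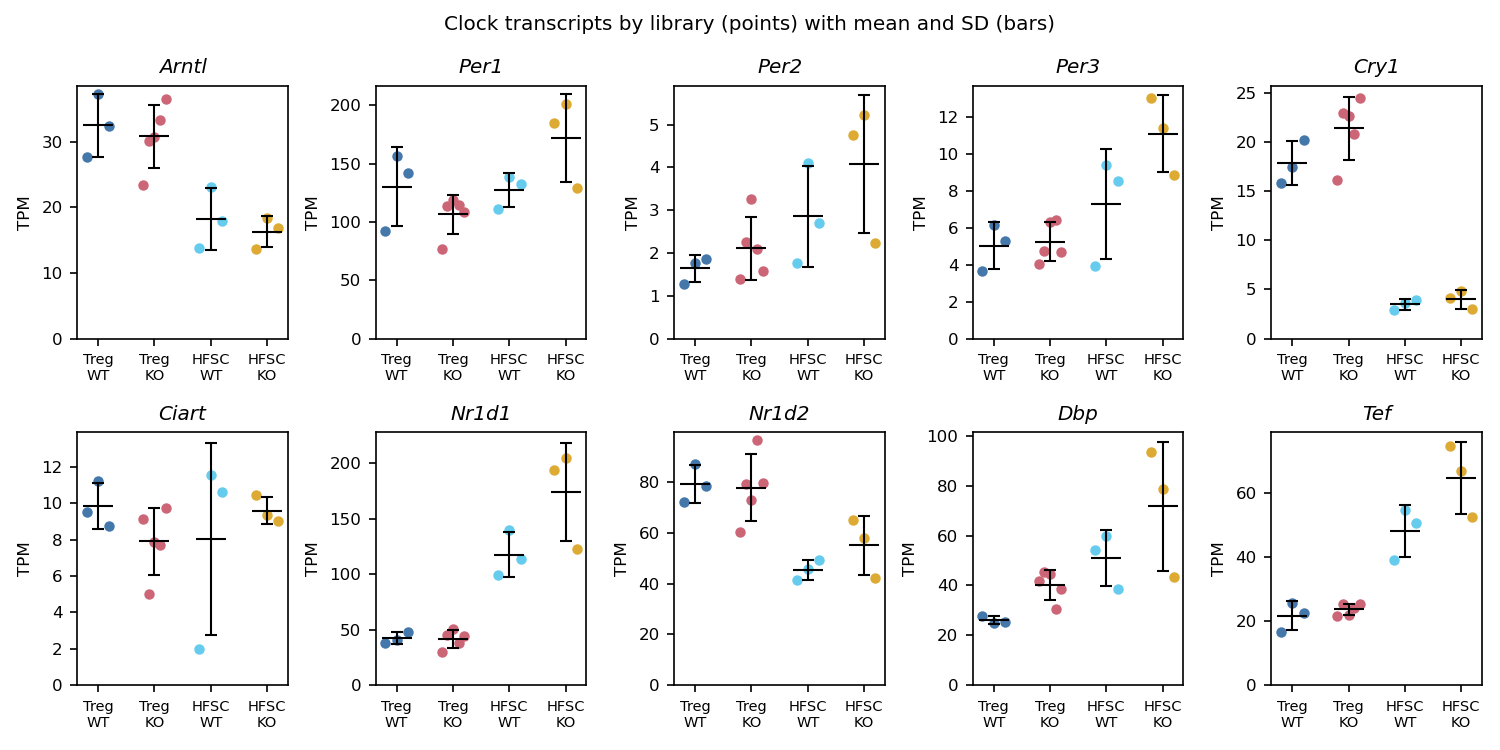
TPM of the 10 clock genes in each library (points) of the 4 groups, with the group mean and SD (bars). In Treg cells all 5 GR KO points of Dbp lie above the 3 GR WT points, and in HFSC 2 of 3 GR KO points lie above all GR WT points for Nr1d1, Per1 and Tef.

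In Treg cells the GR KO mean of Dbp was 154.5% of the GR WT mean, and those of the other 9 clock genes lay between 80.4% (Ciart) and 128.8% (Per2). None of the 10 members passed the test at an adjusted p of 0.05 (limma), against 175 of 11579 genes tested, or 1.51%. At an unadjusted p of 0.05 there was 1 member of 10, Dbp, beside 14.1% of all genes tested, and a second fit by voom on recovered tags also called 0 members. In GR KO 5 members were higher and 5 lower, with a median log2 fold change of 0.01, beside -0.04 over all genes tested. Dbp alone was higher in every GR KO library than in every GR WT library, as were 3.42% of all genes tested, and 0 members were lower in every library, beside 5.1% of all genes. Fold changes are on the log2(TPM + 1) scale, which understates the change of low transcripts such as Per2, and their 95% intervals are not adjusted for the number of genes tested.

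Arntl, the activator, was at 27.7, 37.3 and 32.5 TPM in GR WT and at 23.4, 30.2, 30.8, 33.3 and 36.5 TPM in GR KO Treg cells. The groups overlapped throughout, and the log2 fold change was -0.08 (95% interval -0.42 to 0.26, adjusted p = 0.869 by limma). The interval includes no change and changes of up to its bounds in either direction.

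Among the repressors, Per1, a Period gene that glucocorticoids induce, was at 92.6, 156.8 and 141.7 TPM in GR WT and at 77.0, 113.6, 118.6, 114.7 and 108.9 TPM in GR KO. All 5 GR KO libraries were below GR WT replicates 2 and 3, but 4 of them were above GR WT replicate 1. Its log2 fold change was -0.27 (95% interval -0.68 to 0.14, adjusted p = 0.547 by limma), and went from -0.50 (adjusted p = 0.179) without GR WT replicate 1 to -0.12 (adjusted p = 0.854) without GR WT replicate 2, with -0.16 without GR KO replicate 1. Per2 had 54 to 166 tags per library, at 1.64 ± 0.311 TPM in GR WT and 2.11 ± 0.733 in GR KO (SD, n = 3 and 5), and did not pass (adjusted p = 0.78, limma). Per3 averaged 5.05 TPM in GR WT and 5.25 TPM in GR KO (adjusted p = 0.943, limma).

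Cry1, the cryptochrome that holds the activator in check late in the cycle, was at 15.9, 17.5 and 20.3 TPM in GR WT and at 16.2, 23.0, 22.6, 20.9 and 24.5 TPM in GR KO. Only GR KO replicate 1 lay within the GR WT range, and the log2 fold change of 0.24 (95% interval -0.10 to 0.58) did not pass (adjusted p = 0.525, limma). Ciart, a repressor also known as Chrono, averaged 9.83 ± 1.26 TPM in GR WT and 7.90 ± 1.82 in GR KO (SD, n = 3 and 5), a log2 fold change of -0.30 with an adjusted p of 0.547 (limma). The REV-ERB genes were the least different: Nr1d1 averaged 42.2 and 41.5 TPM in GR WT and GR KO, and Nr1d2 79.4 and 78.0 TPM. Their log2 fold changes were both -0.04, with 95% intervals from -0.40 to 0.32 for Nr1d1 and from -0.35 to 0.27 for Nr1d2.

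The gene of the first output factor, Dbp, lies at chr7:45705247-45710203 on the plus strand of mm10. It was at 27.9, 24.9 and 25.2 TPM in GR WT Treg cells and at 41.7, 45.4, 44.7, 30.7 and 38.7 TPM in GR KO. The groups did not overlap, and GR KO replicate 4 was the closest to GR WT. Replicate 4 also had the highest Nr3c1 level of the GR KO libraries, but a link between these values would rest on a single library and was not tested. The means were 26.0 ± 1.65 and 40.2 ± 5.96 TPM (SD, n = 3 and 5), a log2 fold change of 0.60 (SE 0.14, 95% interval 0.29 to 0.91), or 1.51-fold. With an unadjusted p of 0.00128 Dbp ranked 214th of the genes tested, and its adjusted p of 0.0694 (limma) missed the threshold. It passed at 0.0203 when GR KO replicate 4 was left out, and reached 0.233 without GR WT replicate 3. The sign was the same in 19 of 19 alternative settings, with log2 fold changes from 0.53 to 0.73.

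Tef, which encodes a factor of the same family, was at 16.7, 25.6 and 22.6 TPM in GR WT and between 21.5 and 25.3 TPM in the 5 GR KO libraries. GR KO lay within the GR WT range, and its log2 fold change of 0.14 became -0.03 without GR WT replicate 1. The third member of the family, Hlf, is no member of the set of 10, and is given with the other clock genes.

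**Figure D3:**
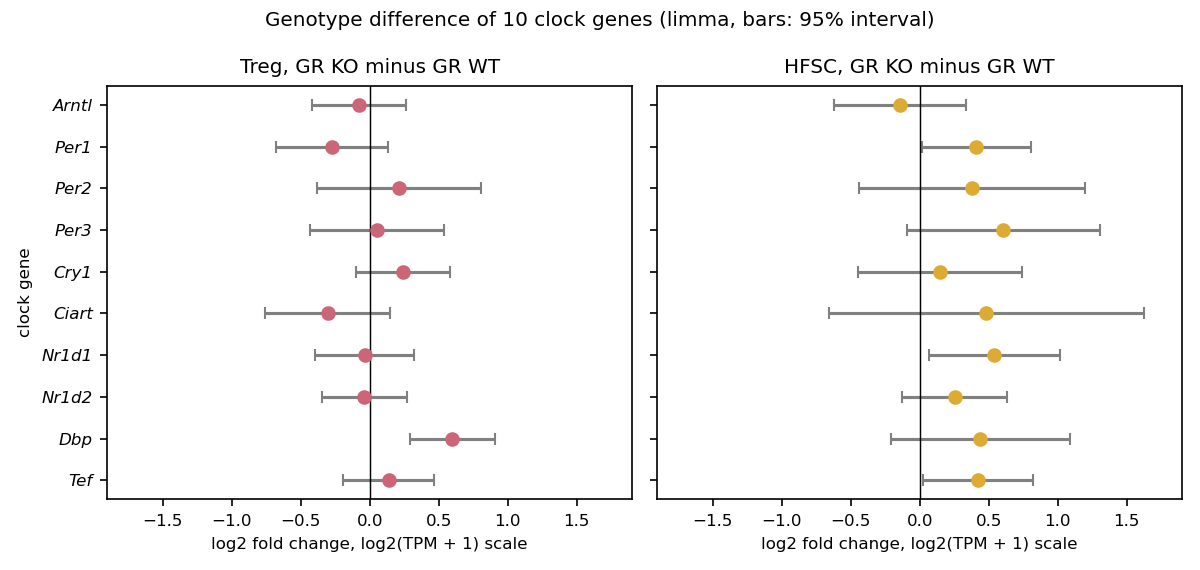
Log2 fold change of GR KO over GR WT on the log2(TPM + 1) scale (points) with the 95% interval from limma (bars), for Treg cells (left) and HFSC (right). In Treg cells the interval of Dbp, from 0.29 to 0.91, lies above 0 and the other 9 include 0, while in HFSC 9 of 10 points lie above 0.

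Markers of other cells moved with genotype in the Treg table. The counts of markers called below stand beside 1.51% of all genes tested, called in either direction. The summed TPM of 6 basal keratinocyte markers spanned 205 to 321 in GR WT and 11.3 to 78.6 in GR KO. All 6 were lower, and 5 of the 6 were called (adjusted p at most 0.05, limma). The sum of 6 macrophage and monocyte markers spanned 175 to 284 in GR WT and 44.6 to 127 in GR KO, with all 6 lower and 4 called. That of 4 neutrophil markers spanned 75.3 to 321 and 0 to 19.8. Of 4 follicle stem cell markers tested all were lower, and 2 fell by limma: Krt15 (163.7 to 6.75 TPM, adjusted p = 0.00214) and Cd34 (13.2 to 2.76 TPM, adjusted p = 0.0467). All 6 fibroblast markers were lower with 0 called, and all 7 sebocyte and adipocyte markers tested with 3 called. No keratinocyte, macrophage or neutrophil marker was at 0 in all Treg libraries. The part of other cells in the members' values was not tested. In such bulk samples, fewer cells of a type and less RNA per cell cannot be told apart.

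In HFSC, whose own receptor gene the knockout does not target, most clock genes had higher means in GR KO, carried by 2 of its 3 libraries. Again 0 of the 10 members passed at an adjusted p of 0.05 (limma), against 22 of 12493 genes tested, or 0.176%. At an unadjusted p of 0.05 there were 3 members of 10, Nr1d1, Tef and Per1, beside 16.6% of all genes tested, and voom called 0. In GR KO 9 members were higher and 1 lower, with a median log2 fold change of 0.42, beside -0.02 over all genes tested. For 0 members did the groups separate, whereas 10.7% of all genes were higher, and 12.8% lower, in every GR KO library than in every GR WT library.

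Nr1d1, the clock's most abundant REV-ERB gene in these cells, was at 99.6, 139.4 and 113.5 TPM in GR WT and at 194.2, 204.7 and 123.0 TPM in GR KO. Replicates 1 and 2 of GR KO were above every GR WT library and replicate 3 lay within their range. The log2 fold change was 0.54 (SE 0.21, 95% interval 0.07 to 1.01), with an unadjusted p of 0.0299 and an adjusted p of 0.251 (limma).

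Per1 was at 111.3, 138.3 and 132.6 TPM in GR WT and at 185.2, 201.6 and 129.2 TPM in GR KO HFSC. It had the same layout of libraries, and a log2 fold change of 0.41 (95% interval 0.01 to 0.81, adjusted p = 0.286 by limma). Tef was at 38.9, 54.7 and 50.5 TPM in GR WT and at 74.6, 67.0 and 52.4 TPM in GR KO, a log2 fold change of 0.42 (95% interval 0.02 to 0.82, adjusted p = 0.279). Dbp, the other output factor, was at 54.4, 60.03 and 38.6 TPM in GR WT and at 93.6, 78.8 and 43.2 TPM in GR KO. Its spread was the wider one, and its log2 fold change of 0.44 had a 95% interval from -0.21 to 1.09 (adjusted p = 0.478, limma).

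Per3 was at 3.91, 9.44 and 8.53 TPM in GR WT and at 13.1, 11.4 and 8.89 TPM in GR KO HFSC, and had the highest log2 fold change of the 10, 0.61 (95% interval -0.09 to 1.31, adjusted p = 0.363 by limma). That value rests in part on GR WT replicate 1, and was 0.27 without it. Ciart was at 1.98, 11.5 and 10.6 TPM in GR WT and at 10.4, 9.33 and 9.004 TPM in GR KO. The low library was again GR WT replicate 1, with 8 tags for Ciart, and the log2 fold change went from 0.48 to -0.19 when it was left out. Per2, with 30 to 148 tags per library, averaged 2.86 ± 1.18 TPM in GR WT and 4.07 ± 1.61 in GR KO (SD, n = 3 each, adjusted p = 0.636 by limma).

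Nr1d2 averaged 45.5 ± 3.93 TPM in GR WT and 55.2 ± 11.6 TPM in GR KO HFSC (SD, n = 3 each), with an adjusted p of 0.489 (limma). Cry1 averaged 3.48 and 3.99 TPM (adjusted p = 0.814). Arntl, whose gene REV-ERB represses, was the 1 member with a lower mean in GR KO: 13.8, 23.2 and 18.0 TPM in GR WT against 13.7, 18.4 and 16.8 TPM in GR KO. The groups overlapped, and the log2 fold change was -0.14 (95% interval -0.62 to 0.34, adjusted p = 0.776 by limma).

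In HFSC most members were high or low together by library. The counts below were made on the members only, without the shares over all genes, so they show no trait particular to the clock genes. GR KO replicates 1 and 2 were each above all GR WT libraries for 8 of 10 members, while replicate 3 lay within the GR WT range for 10 of 10. Expressed as the median over the 10 members of the log2 deviation from the GR WT mean, the GR KO libraries were at 0.61, 0.56 and -0.03, and the GR WT libraries at -0.25, 0.26 and 0.08. GR WT replicate 1, the library set apart in the principal component, was the lowest of its group for 9 of 10 members. In Treg cells the same medians were -0.19, 0.05, 0.15, 0.19 and 0.04 in GR KO and -0.18, 0.16 and 0.08 in GR WT. There GR KO replicate 1 and GR WT replicate 1 were each the lowest of their group for 8 of 10.

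**Figure D4:**
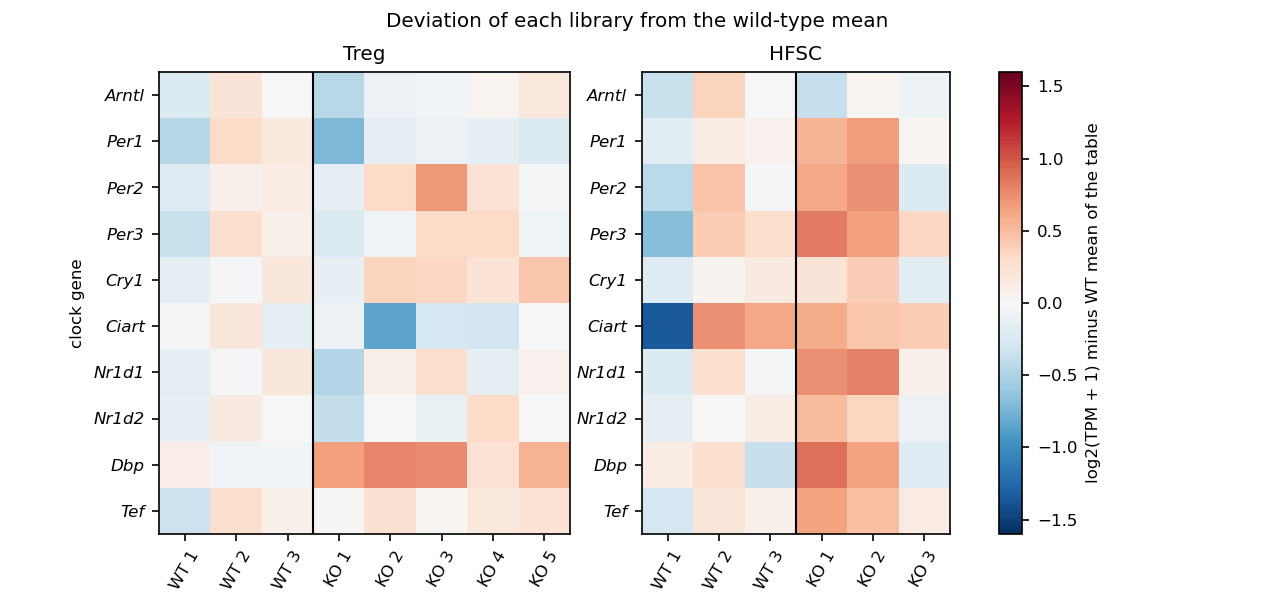
Deviation of each library (columns) from the GR WT mean of its table on the log2(TPM + 1) scale (colour) for the 10 clock genes (rows), with Treg cells left and HFSC right. Most members are above the mean in HFSC GR KO replicates 1 and 2 and close to it in replicate 3, and Dbp is above it in all 5 Treg GR KO libraries.

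Leaving out GR KO replicate 3 raised the HFSC log2 fold changes to 0.77 for Nr1d1 (adjusted p = 0.224), 0.76 for Dbp (0.292), 0.60 for Per1 (0.225) and 0.56 for Tef (0.349), none of which passed by limma. Leaving out some of the other libraries lowered them. The value for Dbp was 0.22 without GR KO replicate 1 and 0.26 without GR WT replicate 3, against 0.44 with all libraries. Without GR KO replicate 2, Nr1d1 was at 0.41 and Per1 at 0.29, and without GR WT replicate 1 Tef was at 0.28. Cell markers also differed in HFSC. The sum of 8 sebocyte and adipocyte markers spanned 3430 to 5260 TPM in GR WT and 7390 to 9340 in GR KO. That of 6 basal keratinocyte markers, which the sorted cells themselves carry at high levels, spanned 17800 to 20000 and 12900 to 15000 TPM. Of 8 follicle stem cell markers, 3 were lower in every GR KO library and 0 passed (limma), beside 12.8% and 0.176% of all genes. None of these markers was at 0 in all libraries. All 8 of the first list were higher in every GR KO library, replicate 3 included, beside 10.7% of all genes. Of these 8, 1 passed, Plin2 (adjusted p = 0.0459 by limma), beside 0.176% of all genes. The part of the marked cell types in the members' values was not tested.

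The ratio of another clock gene to the activator Arntl within a library does not depend on the library's scale. Dbp over Arntl was 0.817 ± 0.173 in GR WT and 1.34 ± 0.35 in GR KO Treg cells (SD, n = 3 and 5), with libraries from 0.667 to 1.01 and from 0.921 to 1.78, which overlap. In HFSC it was 2.90 ± 0.943 and 4.57 ± 2.15 (n = 3 each), also overlapping. Nr1d1 over Arntl was 1.31 ± 0.194 and 1.35 ± 0.212 in GR WT and GR KO Treg cells. In HFSC it was 6.52 ± 0.64 in GR WT, from 6.01 to 7.24, and 10.9 ± 3.45 in GR KO, from 7.31 to 14.2, so that the ranges did not overlap, by a narrow margin. Per1 over Arntl overlapped in both cell types: it was 3.97 ± 0.55 and 3.46 ± 0.356 in GR WT and GR KO Treg cells, and 7.14 ± 1.08, from 5.96 to 8.09, and 10.7 ± 2.94, from 7.67 to 13.5, in HFSC. No test was run on these ratios.

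Whether the genotype difference itself differed between the cell types was tested as an interaction, on 10362 genes measured in both. None of the 10 members passed (limma), against 193 genes, or 1.86%, and 1 member of 10, Per1, had an unadjusted p under 0.05, beside 16.2% of all genes. For Per1 the Treg difference minus the HFSC difference was -0.68 on the log2 scale (SE 0.28, 95% interval -1.28 to -0.08, adjusted p = 0.246). For Nr1d1 it was -0.58 (adjusted p = 0.325). For Dbp, with higher GR KO means in both cell types, it was 0.16 (adjusted p = 0.853), and it turned to -0.17 without HFSC GR KO replicate 3 and reached 0.38 without HFSC GR KO replicate 1. Cell type and days after depilation go together in this design, so they cannot be told apart.

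A list of 29 other clock genes was described the same way. It was made of activators, repressors, ROR receptors, Hlf and Nfil3, kinases, ligases, the partners Timeless and Tipin, and outputs. In Treg cells 25 were tested, 6 with higher and 19 with lower values in GR KO, and the median log2 fold change was -0.12. Over all genes tested there, 44.2% were higher and the median was -0.04. By limma 1 fell and 0 rose, beside 1.51% of all genes called in either direction. In every GR KO library 3 of the 25 were lower, beside 5.1% of all genes, and 0 were higher, beside 3.42%. In HFSC 27 were tested, 23 higher and 4 lower, with a median of 0.20. Over all genes tested in HFSC, 47.2% were higher and the median was -0.02. By limma 1 rose and 0 fell, beside 0.176% of all genes called in either direction. In every GR KO library 7 of the 27 were higher and 2 lower, beside 10.7% and 12.8% of all genes.

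The gene that fell in Treg cells was Tsc22d3, which encodes GILZ and is a classic glucocorticoid-induced transcript. It was at 414.7, 478 and 399.9 TPM in GR WT and at 192.6, 243, 211, 242 and 239 TPM in GR KO. The groups were far apart, with a log2 fold change of -0.93 (SE 0.11, adjusted p = 0.00214 by limma). In HFSC it was at 31.6, 45.7 and 32.3 TPM in GR WT and at 76.2, 66.6 and 49.1 TPM in GR KO, where the log2 fold change of 0.79 did not pass (adjusted p = 0.123).

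The gene that rose in HFSC was Klf9, a zinc-finger factor driven by both the clock and glucocorticoids. It was at 41.8, 48.7 and 44.8 TPM in GR WT and at 84.8, 87.1 and 77.3 TPM in GR KO HFSC. All 3 GR KO libraries, replicate 3 included, were above GR WT, with a log2 fold change of 0.87 (SE 0.11, adjusted p = 0.0413 by limma). That call was lost with any 1 library left out (adjusted p from 0.0594 to 0.175). In Treg cells Klf9 was at 27.3, 27.6 and 43.2 TPM in GR WT and at 13.1, 17.9, 12.6, 25.7 and 16.0 TPM in GR KO, without overlap. Its log2 fold change of -0.91 there had an adjusted p of 0.0975 (limma), which was 0.0319 without GR KO replicate 4 and 0.366 without GR WT replicate 3, where the log2 fold change was -0.70.

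The interaction passed for 3 of the 25 genes of the list tested in Treg cells, all tested in HFSC too, beside 1.86% of all genes. The list was chosen with earlier results of these data known. It was -1.78 for Klf9 (SE 0.30, adjusted p = 0.00563 by limma) and -1.72 for Tsc22d3 (SE 0.22, adjusted p = 0.00116), and both passed in all 24 alternative settings. For Tipin, a partner of Timeless at the replication fork, it was 0.93 (SE 0.20, adjusted p = 0.0236), and it passed in 20 of 24. Tipin averaged 14.7 ± 0.996 and 18.5 ± 2.77 TPM in GR WT and GR KO Treg cells, and 41.4 ± 3.08 and 26.5 ± 2.68 TPM in HFSC, with no call in either table (adjusted p = 0.38 and 0.0798).

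**Figure D5:**
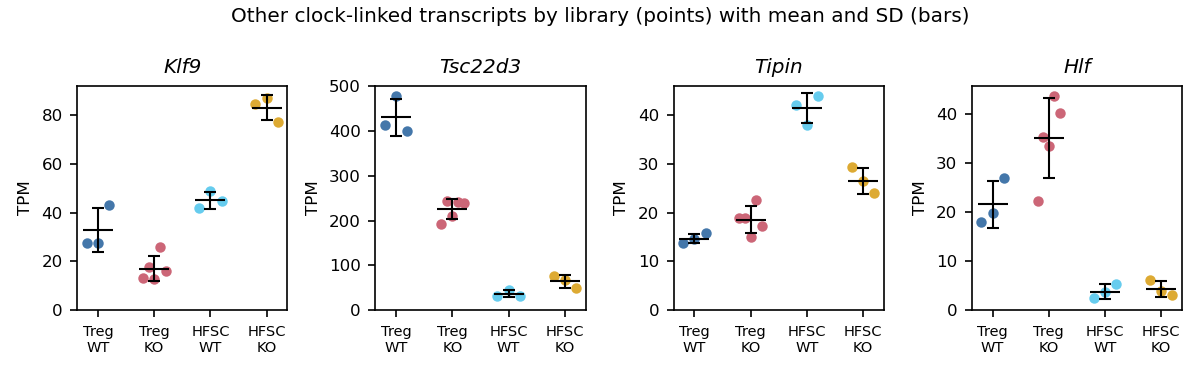
TPM of Klf9, Tsc22d3, Tipin and Hlf in each library (points) with the group mean and SD (bars). Klf9 and Tsc22d3 are lower in all 5 GR KO libraries of Treg cells and higher in all 3 of HFSC, and Hlf is low in both HFSC groups.

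Other genes named by rank did not pass in either table. In Treg cells Hlf, the PAR bZIP partner of Dbp and Tef, averaged 21.6 ± 4.76 TPM in GR WT and 35.1 ± 8.17 TPM in GR KO (SD, n = 3 and 5, log2 fold change 0.66, adjusted p = 0.188 by limma). Bhlhe40, a repressor that competes for E-boxes, averaged 148 ± 43.4 and 102.7 ± 26.8 TPM (adjusted p = 0.311). Nfil3, which opposes DBP at D-boxes, averaged 204 and 197 TPM in Treg cells, and 123 ± 5.71 and 161 ± 18.1 TPM in HFSC without overlap (adjusted p = 0.155). Nampt, a clock output in NAD synthesis, averaged 63.0 ± 12.5 and 96.8 ± 12.2 TPM in HFSC (adjusted p = 0.137).

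Rora, an activator of Arntl, averaged 161 ± 23.9 and 148.5 ± 29 TPM in GR WT and GR KO Treg cells (adjusted p = 0.79, limma), and 3.49 ± 1.12 and 6.64 ± 1.06 TPM in HFSC without overlap (adjusted p = 0.203). Csnk1d, a kinase of the PER proteins, averaged 80.0 ± 18.6 and 90.3 ± 6.16 TPM in HFSC (adjusted p = 0.6). The cell types also differed in which copies they carried: GR WT Bhlhe41 was 8.17 TPM in HFSC and 0.157 TPM in Treg cells, and Arntl2, the paralog of Arntl, 11.9 and 0.359 TPM. Cry2, the second cryptochrome, was at 22.9 TPM in HFSC and 5.15 TPM in Treg cells, the reverse order of Cry1.

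The profiles most like that of Dbp were found by the root mean square difference of log2(TPM + 1) values, each centred on its mean over the libraries. In Treg cells, over 8 libraries and 11578 genes, the closest were Txndc15 (0.081), Sh3glb2 (0.09), Fam216a (0.091), 1500011K16Rik (0.094) and Limd2 (0.108), beside a spread of 0.332 in Dbp itself. These genes were picked for their likeness to Dbp in the same libraries. A higher level in GR KO therefore comes with the choice and is no separate result. Of the 5, Limd2 passed the test, at 90.8 ± 9.22 TPM in GR WT and 130 ± 11.2 in GR KO (SD, n = 3 and 5, adjusted p = 0.0394 by limma). The clock gene nearest to Dbp in Treg cells was Cry1, at rank 1402, with a difference of 0.302.

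In HFSC, over 6 libraries and 12492 genes, the closest profiles were those of Ube2d-ps (0.136), Tnfrsf11a (0.149), Snhg14 (0.153), Bcl3 (0.167) and Ccdc58 (0.178), beside a spread of 0.441 in Dbp. Here Nr1d1 was at rank 24 (0.24), Per1 at 54, Per2 at 88, Nr1d2 at 98 and Tef at 123. Arntl stood at rank 8045 and Ciart at 11705. The genes of a table were measured in the same libraries, and these ranks are a description without a test.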

How the data were processed

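RNA was sequenced from sorted cells with a stranded mRNA library kit, per the labels' protocols. The values used are the TPM that the authors deposited, in 2 tables of 24537 gene symbols, each with 1 RefSeq transcript and its length, per the file headers. FastQC, Trim Galore, STAR, HOMER and the mm10 build are named per the submitters' processing notes. Their versions, their settings and the use of strand in counting are not stated there. The names of the HFSC columns begin with letters for which no label gives a meaning, so columns were matched to samples by table, genotype and number.

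Each table was filtered to genes whose mean reached 1 TPM, and log2(TPM + 1) values entered a linear model (limma 3.58.1, R 4.3.3; prior with a trend; two-sided), and p-values were adjusted by Benjamini-Hochberg over all genes fitted, with a threshold of 0.05. The interaction used 4 group means over all 14 libraries. The scripts were tested on simulated data. TPM multiplied by transcript length gave whole multiples of 1 amount per library for 100% of low values (within 0.1 of a tag), and the tags recovered this way were summed as the depth. At 3 tags on a transcript of 2000 bases, the level is 0.138 to 0.207 TPM in Treg and 0.308 to 0.515 TPM in HFSC libraries. Of the recovered counts above 0, 59.9% to 65.6% per library were even numbers. Tags may therefore not all stand for separate RNA fragments, which was not tested. No libraries were duplicates: the chi-square per gene between replicates was 2.74 to 16.4.

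The 10 members and the lists of other clock genes and cell markers were chosen with earlier results of these data known. All members are named, with the other clock genes past the threshold, the 4 with the smallest p in each table, the 3 with the highest mean TPM and the 5 profiles per table most like Dbp. Genes named for their levels in the wild-type cells (Cry2, Arntl2, Bhlhe41) were chosen after their values were seen. Promoters came from a RefSeq table of build GRCm38.p6, the assembly that mm10 names. The alternatives were pseudocounts of 0.1 and 5, other filters, scalings, weights and priors, a replicate block, voom on recovered tags and leaving out each library.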

Additional observations from a re-analysis of the deposited data

Results flagged for a closer look

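Per1 in Treg GR KO replicate 1 was at 76.957 TPM, below the other 4 GR KO libraries, which lay between 108.9 and 118.6 TPM. The gap took a share of 0.765 of the group's range, past Dixon's limit for 5 samples. Of 20 named genes examined this way in the 5 Treg GR KO libraries 1 stood out, and chance flags about 1 in 20. That library was also the lowest GR KO library for 8 of the 10 clock genes. Treg GR WT replicate 1 was likewise the lowest GR WT library for 8 of the 10. Neither count was made over all genes.

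The genotype difference, Treg minus HFSC, differed between the cell types by the interaction test (limma) for 3 genes of the other clock list. It was -1.781 for Klf9, which was lower in GR KO Treg cells and higher in GR KO HFSC. It was -1.721 for Tsc22d3, with the same directions. It was 0.932 for Tipin, with the opposite ones. Of these, Tsc22d3 passed in the Treg table alone and Klf9 in the HFSC table alone.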

How the results depend on the processing

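No member passed under any alternative, except Dbp in Treg cells without GR KO replicate 4, so the Treg count over left-out libraries ran from 0 to 1. The 10 members kept their sign in every setting for 5 genes in Treg cells, 8 in HFSC and 6 in the interaction. With the replicate number as a block, 0 members passed in Treg cells, in HFSC and in the interaction. Same-numbered libraries deviated together weakly or not at all (correlations 0.17, 0.087 and -0.117 in Treg, 0.016, 0.062 and -0.042 in HFSC), so the numbers are not taken as pairs.

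Counts over all genes moved more: 78 with the block to 253 with voom in Treg (175 as reported), 0 with a library left out to 584 with sample weights in HFSC (22), and 98 to 405 in the interaction (193). The cause was not tested. The interaction of Tipin was lost with the block (adjusted p = 0.0996) and without HFSC GR WT replicate 3 (0.0604), GR KO replicate 2 (0.0698) or GR KO replicate 3 (0.0794), by limma. Per2 in both tables, and Cry1 and Ciart in HFSC, rest on few tags, and 3 libraries a group leave wide intervals.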
